A study of Aconitum japonicum with 4 samples.

Results

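The 32 transcripts described here were abundant and of similar level in the mother root, daughter root and rootlet of *Aconitum japonicum* and were low in its leaf. They were chosen by the FPKM of all 4 libraries. Each had at least 50 FPKM in every root library, a largest root FPKM of at most 2 times the smallest, and a leaf FPKM of at most 1/20 of the smallest root FPKM. They are 32 of 129760 assembled transcripts (0.0247%). FPKM counts the fragments of a transcript relative to its length and to the depth of the library. The rule therefore fixed the contrast between roots and leaf and the limit on the differences among roots, so both are given below as a description without a test. The working name of the group called these transcripts absent in leaf. That did not hold for 28 of the 32, which had at least 1 leaf fragment, and the group is therefore called even across roots and low in leaf.

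The study sequenced RNA from the mother root (the older tuber), the daughter root (the younger tuber), the rootlet (fine roots) and the leaf of greenhouse-grown plants, with 1 library per tissue. The labels name no treatment and no genetic change, and plant age was not given in the sources used here. RNA for each library came from a single biological replicate, so no value has a replicate check and intervals cover counting error only. Reads were counted on a de novo assembly of the same 4 libraries. Transcripts are named by the assembler, Trinity, as a component (TR16913), a gene within it (c0_g1) and a transcript of that gene (i1), and have no place on a genome.

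Mother root gave 11801534 fragments, daughter root 12792781, rootlet 4492151 and leaf 4516426, so rootlet and leaf were the shallower pair. The leaf label was checked on 3 transcripts described as photosynthetic, of which 2 were highest in leaf. This list drew in part on transcripts that the study found in every tissue. It left out those that the study listed for leaf only, which were chosen on these libraries. TR836|c0_g1_i1, described as the alpha subunit of photosystem II cytochrome b559, had 0, 0.19 and 0 FPKM in mother root, daughter root and rootlet, against 23.7 FPKM in leaf. TR12495|c0_g1_i1, of a photosystem II reaction center family, had 0.50, 0.15 and 0.44 FPKM in these roots, against 2.18 FPKM in leaf, which is 5 fragments with limits of 0.707 to 5.08 FPKM that overlap those of each root. The RuBisCO activase transcript TR17798|c0_g1_i1 was not higher in leaf, with 0.79, 0.73 and 0.69 FPKM in these roots and 0.69 FPKM, or 1 fragment, in leaf. The leaf label thus rests on TR836|c0_g1_i1, with 44 leaf fragments, and no list of root markers was used.

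Aconite tubers store starch and are the source of the diterpene alkaloids for which the plants are used in medicine and known as poisons. The mother root carries the shoot of the current season, the daughter root forms beside it as the storage and renewal organ, and the rootlets take up water and minerals. All of them lack the photosynthetic tissue that makes up the leaf. Transcripts that every root type holds at a like level and the leaf hardly holds are thus shared among organs that differ in age and function.

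Low leaf level was uncommon among transcripts that were even across roots. Of 2587 transcripts with at least 50 FPKM in all 3 roots, 1681 were even across them (root-even transcripts), and 32 of these were low in leaf (1.9%). Looked at from the other side, 141 of the 2587 were low in leaf (5.45%), and 32 of these 141 were even across roots (22.7%), while the other 109 differed by more than 2-fold among the roots. The opposite pattern, with leaf at least 20 times the largest root, was found for 1 of the 1681 root-even transcripts (0.0595%). With every root at 50 FPKM or more, that pattern needed a leaf level far above the leaf library's median of 3.43 FPKM. Its count is thus held down by the level condition and is not a like comparison with the 32. For 1093 of the 1681, leaf was at most 2-fold below the smallest root and at most 2-fold above the largest, and 560 were even over all 4 libraries.

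**Figure D1:**
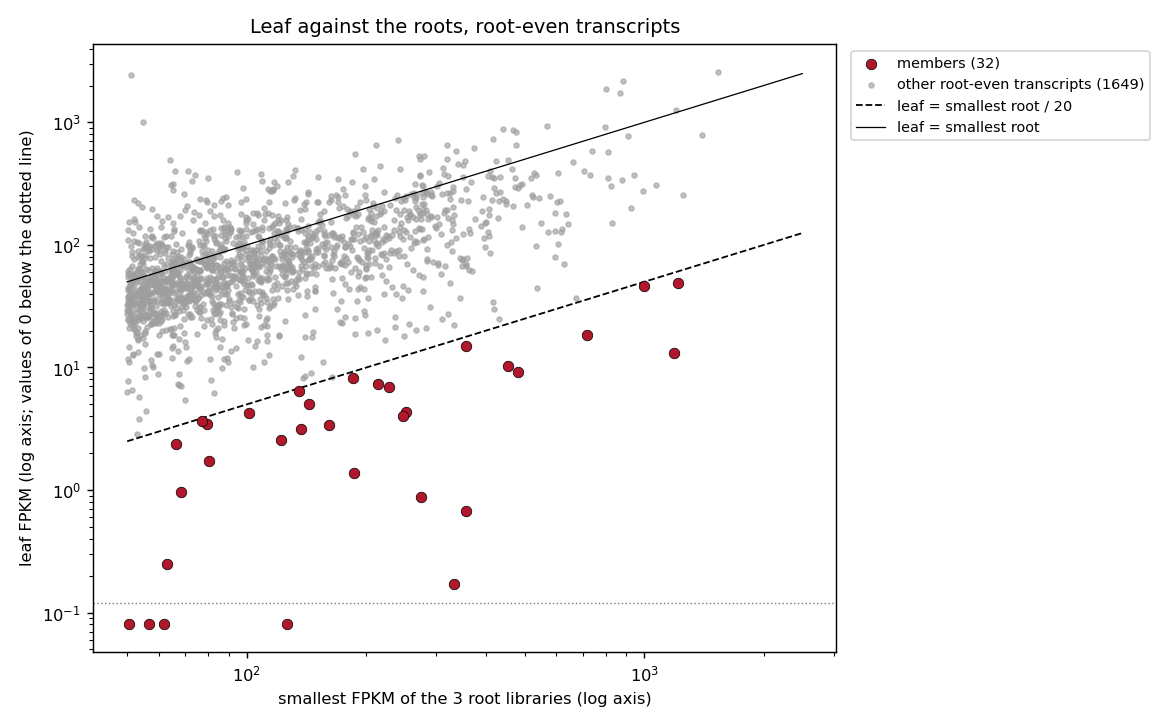
Leaf FPKM (vertical, log axis) against the smallest FPKM of the 3 root libraries (horizontal, log axis) for the 32 members (red) and the other 1649 root-even transcripts (grey). Most grey points lie around the solid line of equal leaf and root level, while the members lie below the dashed line at 1/20 of the root level, with 4 at 0.

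The 32 members spanned a wide range of level. FPKM ran from 51.2 through a median of 193 to 1902 in mother root, from 70.3 through 180.1 to 2242 in daughter root and from 50.7 through 216 to 1256 in rootlet, against 0 through 3.54 to 49.2 in leaf. In mean root FPKM, 16 members were under 200, 13 lay between 200 and 1000 and 3 were above 1000. The 4 highest held 45.1% of the summed root FPKM. Together the members took 0.880% of the mother root fragments, 0.774% of those of daughter root and 0.709% of those of rootlet, against 0.0181% of those of leaf. The root-even transcripts as a whole took 27.0%, 24.9% and 23.4% of these roots, against 14.9% of leaf. Since the libraries were made from whole organs, fewer cells of a type and less RNA per cell cannot be told apart in these or any later values.

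**Figure D2:**
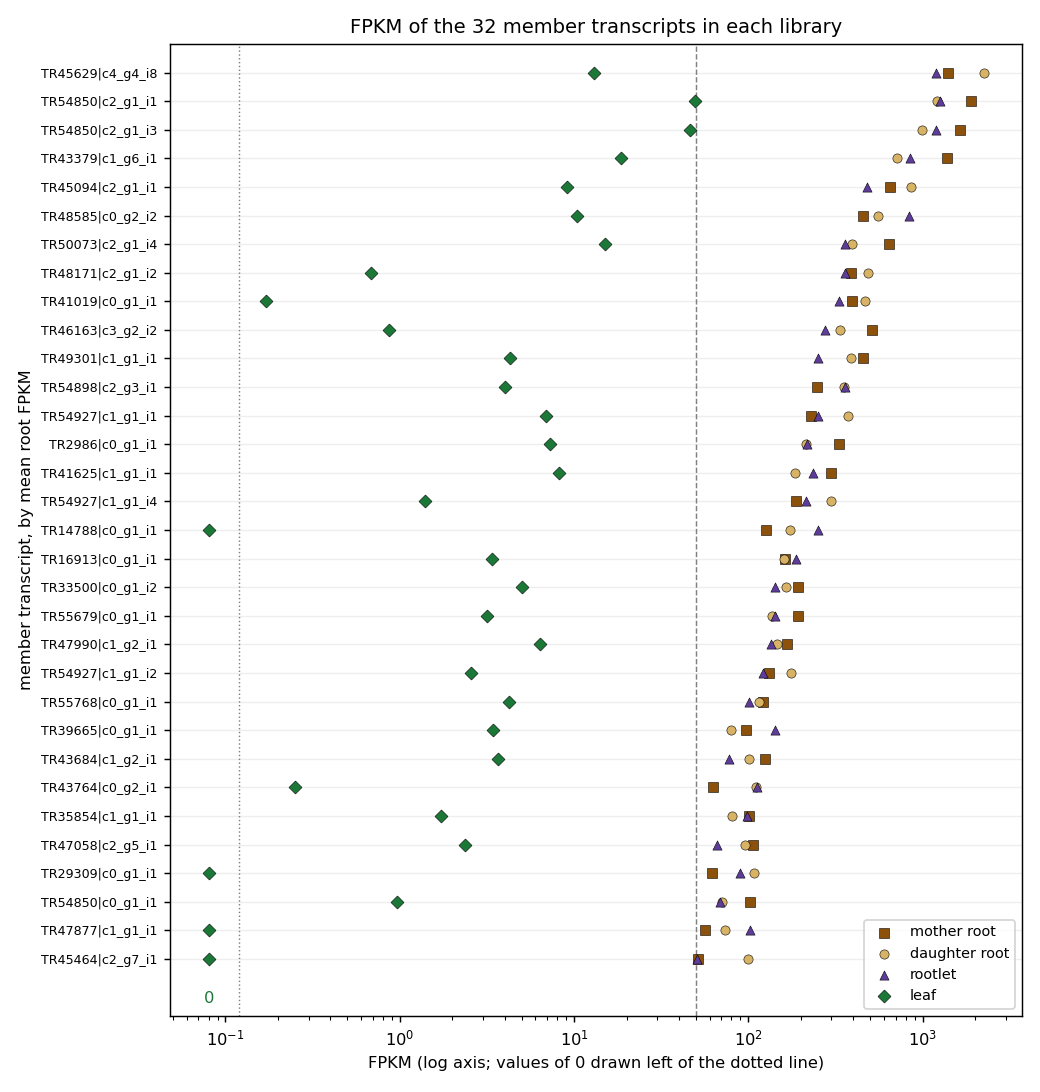
FPKM (horizontal, log axis) of each of the 32 members, ordered by mean root FPKM, in mother root, daughter root, rootlet and leaf, 1 library each. The 3 root symbols of a member lie close together at or above 50 FPKM (dashed line), and leaf lies to their left, between 0.17 and 49.2 FPKM for 28 members and at 0 (left of the dotted line) for 4.

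The member with the highest mean root level was TR45629|c4_g4_i8, of 335 bases. It had 1391 FPKM in mother root, 2242 FPKM in daughter root and 1191 FPKM in rootlet, against 13.1 FPKM in leaf. Daughter root thus stood above the other 2 roots, which were closer to each other. Leaf was 123 times below the mean of the roots but was not empty, with 11 fragments and limits of 6.52 to 23.4 FPKM (exact 95% Poisson limits on the fragment count).

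Next came a pair of transcripts of 1 Trinity gene, TR54850|c2_g1, which has no other transcript in the assembly. TR54850|c2_g1_i1, of 1529 bases, had 1902 FPKM in mother root, 1214 FPKM in daughter root and 1256 FPKM in rootlet, against 49.2 FPKM in leaf. TR54850|c2_g1_i3, of 757 bases, had 1648 FPKM in mother root, 998 FPKM in daughter root and 1199.5 FPKM in rootlet, against 46.6 FPKM in leaf. Both were highest in mother root, and both had more leaf signal than any other member, with 307 and 128 leaf fragments. Leaf FPKM of TR54850|c2_g1_i1 had limits of 43.9 to 55.1, above the median of 3.43 FPKM over the transcripts with any fragment in leaf. Another transcript of this component, in a different gene, TR54850|c0_g1_i1, was among the lowest members, at 103 FPKM in mother root, 70.3 FPKM in daughter root and 68.4 FPKM in rootlet, against 0.97 FPKM in leaf. It too was highest in mother root. The component was not low in leaf throughout. TR54850|c2_g2_i1 and TR54850|c2_g2_i2, which are not members, had 89.8 and 6.48 FPKM in leaf, against 328 and 40.7 FPKM in rootlet, their lowest root. The 3 members of TR54850 held 41.5% of the members' mother root fragments, 29.8% of their daughter root and 35.0% of their rootlet fragments, against 53.2% of their leaf fragments. Summed member values therefore lean on this component in each library. Reads shared by transcripts of 1 gene can be credited to either, so the levels of the c2_g1 pair are less certain apart than summed.

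TR43379|c1_g6_i1 and TR45094|c2_g1_i1 completed the 5 highest members and differed in which root led. TR43379|c1_g6_i1 had 1379 FPKM in mother root, 718 FPKM in daughter root and 849 FPKM in rootlet, against 18.5 FPKM in leaf, which put mother root above both other roots. TR45094|c2_g1_i1, a transcript of 1460 bases and the only one of its gene, had 648 FPKM in mother root, 857 FPKM in daughter root and 480.3 FPKM in rootlet, against 9.12 FPKM in leaf. Here daughter root led and rootlet was lowest. In leaf these transcripts had 19 and 54 fragments.

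A second gene with several members was TR54927|c1_g1, whose 3 transcripts all met the rule. TR54927|c1_g1_i1 had 228 FPKM in mother root, 374 FPKM in daughter root and 251 FPKM in rootlet, against 6.91 FPKM in leaf. TR54927|c1_g1_i4 had 187 FPKM in mother root, 298 FPKM in daughter root and 215 FPKM in rootlet, against 1.39 FPKM in leaf, and TR54927|c1_g1_i2 had 131 FPKM in mother root, 176 FPKM in daughter root and 122 FPKM in rootlet, against 2.57 FPKM in leaf. All 3 were highest in daughter root, and as they share a gene and can share reads, they are not 3 independent observations. Summed, the gene had 546 FPKM in mother root, 847 FPKM in daughter root and 588 FPKM in rootlet, against 10.9 FPKM in leaf.

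Descriptions were held for 2785 of the 129760 transcripts (2.15%), 46 of the 1681 root-even transcripts (2.74%) and 1 of the 32 members (3.13%), so few of any of these had one. TR16913|c0_g1_i1, described as heat shock 70, is a fragment of 279 bases. Heat shock 70 proteins are chaperones that bind unfolded stretches of other proteins with the use of ATP, and plants have many of them, some induced by heat and others made at all times. It had 162 FPKM in mother root, 161 FPKM in daughter root and 187 FPKM in rootlet, against 3.39 FPKM in leaf. It was the most even of the 32, with a largest over smallest root FPKM of 1.16, and mother root over daughter root was 1.003 (0.841 to 1.20, conditional binomial limits at 95%). In leaf it had 2 fragments, with limits of 0.411 to 12.2 FPKM, so a leaf level above 1/20 of the roots lay within counting error.

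Of 25 transcripts described as heat shock proteins in the part of the annotation held here, 2 met the root level (8%), 4 the evenness (16%) and 1 the leaf condition (4%), and TR16913|c0_g1_i1 was the member. The leaf condition was counted only where every root was above 0, and 11 of the 25 were at 0 in leaf and in at least 1 root. Over all transcripts the shares were 1.99%, 18.6% and 6.92%. The list drew in part on transcripts that the study found in every tissue, so its leaf count is not independent of these libraries. The other transcript with 2 conditions met, TR17370|c0_g1_i1, described as a cytosolic heat shock 70, had 929 FPKM in mother root, 574 FPKM in daughter root and 756 FPKM in rootlet, against 127 FPKM in leaf. It was thus far more abundant in leaf than the member while also even across roots. For the other 31 members no gene name or function is given.

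**Figure D3:**
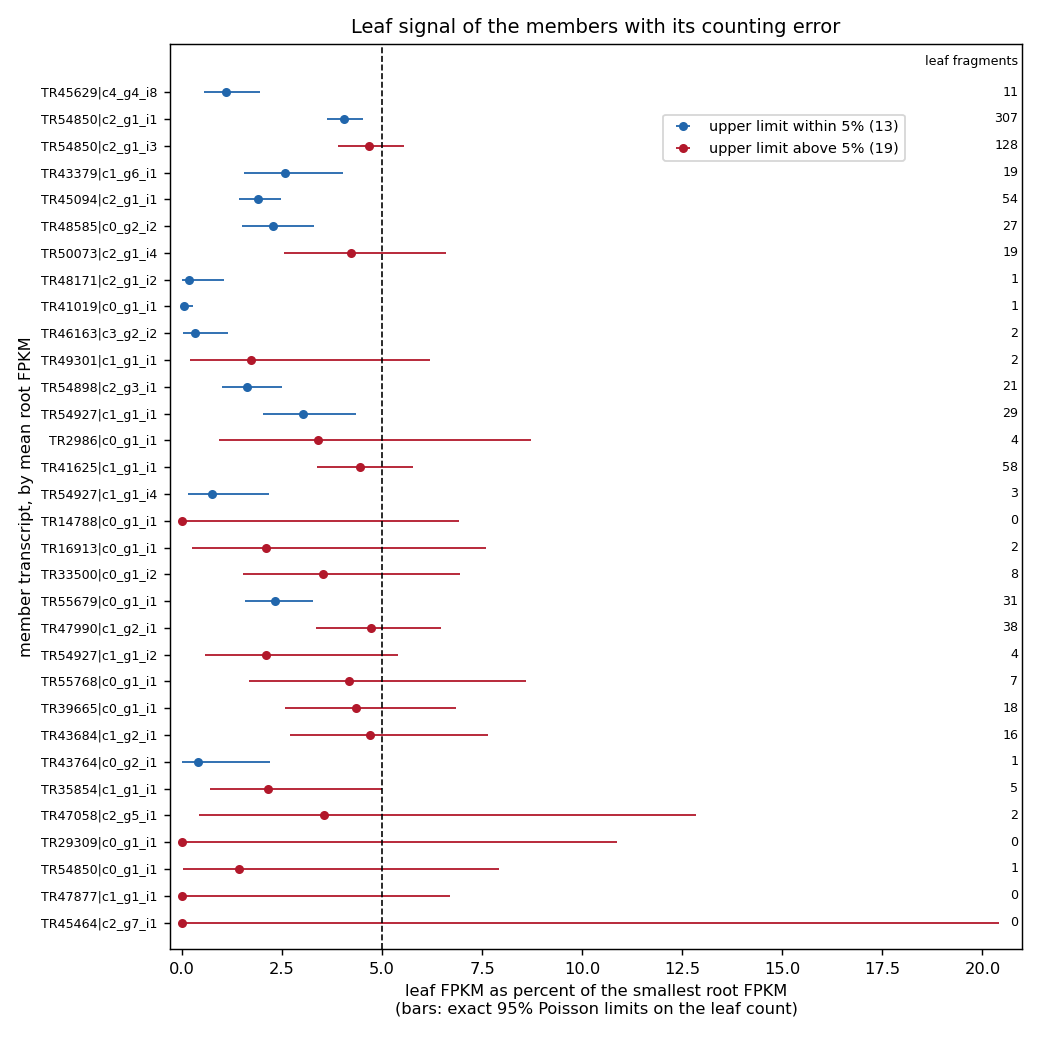
Leaf FPKM of each member as percent of its smallest root FPKM, with exact 95% Poisson limits on the leaf fragment count (bars) and the number of leaf fragments at the right. The upper limit stays within the 5% of the rule (dashed line) for 13 members (blue) and passes it for 19 (red), most widely for the short TR45464|c2_g7_i1 with 0 leaf fragments.

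Leaf signal of the members ranged from none to clear presence. In leaf, 4 members had 0 fragments, 9 had 1 to 3, 5 had 4 to 9 and 14 had 10 or more, with a median of 6. Leaf FPKM was 5 or more for 12 members, and 17 were above the leaf library's own median. The share with 0 leaf fragments was 4 of 32 here, against 4 of all 1681 root-even transcripts (0.238%), which are the same 4, since the rule takes in every root-even transcript at 0. Where leaf had fragments, the mean root FPKM was 23.4 to 2343 times the leaf FPKM, with a median of 51.6 over 28 members. On the log2(FPKM + 1) scale the median difference over all 32 was 5.35, against 0.93 over the root-even transcripts, and 5.14 with the 4 set at a floor of 3 leaf fragments.

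The 4 members without a leaf fragment were all shorter than 400 bases. TR14788|c0_g1_i1 had 126 FPKM in mother root, 174 FPKM in daughter root and 251 FPKM in rootlet, against 0 in leaf. Its mean root level was 25.9 times the level of 3 leaf fragments and 21.1 times the upper counting limit in leaf, with no account of counting error in the roots. TR29309|c0_g1_i1 had 61.8 FPKM in mother root, 107 FPKM in daughter root and 89.6 FPKM in rootlet, against 0 in leaf, and for it these ratios were 15.8 and 12.8. TR47877|c1_g1_i1 had 56.7 FPKM in mother root, 73.8 FPKM in daughter root and 103 FPKM in rootlet, against 0 in leaf, with ratios of 25.1 and 20.4. TR45464|c2_g7_i1, the member of the lowest root level, had 51.2 FPKM in mother root, 100.2 FPKM in daughter root and 50.7 FPKM in rootlet, against 0 in leaf, which came from only 48, 103 and 18 root fragments and gave ratios of 8.01 and 6.51. For all 4 the upper counting limit in leaf lay above 1/20 of the smallest root. TR47877|c1_g1_i1 is listed in the orthogroup OG0022748 among those that *A. japonicum* shares with *Aconitum carmichaelii* and not with *Aconitum heterophyllum*. The share of all transcripts so listed is not given here, so this entry does not set the member apart. The paper cautions that absence from *A. heterophyllum* could come from the fewer tissues behind its assembly.

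Firmer low leaf values came from transcripts that were longer or more abundant in roots, with 1 or 2 leaf fragments, named here after their values were seen. TR41019|c0_g1_i1, of 1471 bases, had 395 FPKM in mother root, 468 FPKM in daughter root and 332 FPKM in rootlet, against 0.17 FPKM in leaf. That was the largest ratio of roots to leaf among members with a leaf fragment, and the upper limit in leaf was 0.933 FPKM. TR46163|c3_g2_i2 had 516 FPKM in mother root, 337 FPKM in daughter root and 274 FPKM in rootlet, against 0.87 FPKM in leaf, and TR48171|c2_g1_i2 had 386 FPKM in mother root, 489 FPKM in daughter root and 357 FPKM in rootlet, against 0.68 FPKM in leaf. TR43764|c0_g2_i1, of 1040 bases, had 63.0 FPKM in mother root, 111 FPKM in daughter root and 112 FPKM in rootlet, against 0.25 FPKM in leaf. These 4 are among the 13 members whose upper leaf limit stayed within 1/20 of the smallest root FPKM. For TR48171|c2_g1_i2 that limit leaves out how shared reads were credited. Another transcript of its gene, TR48171|c2_g1_i4, had 12.1 FPKM in leaf, from 22 fragments. Summed, the gene had 12.75 FPKM in leaf and still met the leaf condition.

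The other members outside the naming rule had mean root levels from 93.25 FPKM (TR35854|c1_g1_i1) to 364 FPKM (TR49301|c1_g1_i1). TR49301|c1_g1_i1, of 251 bases, had 455 FPKM in mother root, 387 FPKM in daughter root and 251 FPKM in rootlet, against 4.31 FPKM in leaf, and TR2986|c0_g1_i1, of 270 bases, had 332 FPKM in mother root, 214 FPKM in daughter root and 218 FPKM in rootlet, against 7.28 FPKM in leaf. Both were short, with 2 and 4 leaf fragments and upper limits of 15.6 and 18.6 FPKM in leaf. TR41625|c1_g1_i1, of 1708 bases, had 299.6 FPKM in mother root, 185 FPKM in daughter root and 235 FPKM in rootlet, against 8.23 FPKM in leaf. TR55679|c0_g1_i1, the longest member at 2317 bases, had 194 FPKM in mother root, 137 FPKM in daughter root and 142 FPKM in rootlet, against 3.17 FPKM in leaf. TR35854|c1_g1_i1 had 101 FPKM in mother root, 80.5 FPKM in daughter root and 98.2 FPKM in rootlet, against 1.73 FPKM in leaf, and TR54898|c2_g3_i1 had 247 FPKM in mother root, 354 FPKM in daughter root and 359 FPKM in rootlet, against 4.02 FPKM in leaf. In those above 1000 bases, leaf presence was measured with 58 fragments for TR41625|c1_g1_i1, 31 for TR55679|c0_g1_i1 and 21 for TR54898|c2_g3_i1.

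The rule limited the differences among roots but not their order. Largest over smallest root FPKM ran from 1.16 to 1.997 with a median of 1.62, and was under 1.5 for 10 members. Mother root was highest for 16 members, daughter root for 9 and rootlet for 7, but with median-of-ratios scaling of the libraries, which raises daughter root against mother root by 0.21 (median log2) over 35605 transcripts, the counts were 12, 14 and 6. Over the root-even transcripts the shares were 40.5%, 36.3% and 23.2% in the same order, without that scaling. The leading root thus varied from member to member.

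Beyond counting error, 15 members were higher in mother root than in daughter root and 14 were lower, with a ratio interval that included 1 for the other 3, but under the same median-of-ratios scaling, chosen for these pairs after the data were seen, 9 were higher and 14 lower. Of the root-even transcripts, 40.9% were higher and 27.2% lower in the same pair. Mother root was above rootlet for 18 members and below it for 9, where the root-even transcripts had 48.6% and 16.1%, and the interval included 1 for 5. Daughter root was above rootlet for 12 and below it for 9, where they had 44.5% and 29%, and the interval included 1 for the other 11. The median log2 ratios over members were 0.11 for mother root over daughter root, 0.25 for mother root over rootlet and 0.13 for daughter root over rootlet, with 0.05, 0.19 and 0.11 over the root-even transcripts, and with that scaling the members' medians were -0.10, 0.08 and 0.16.

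**Figure D4:**
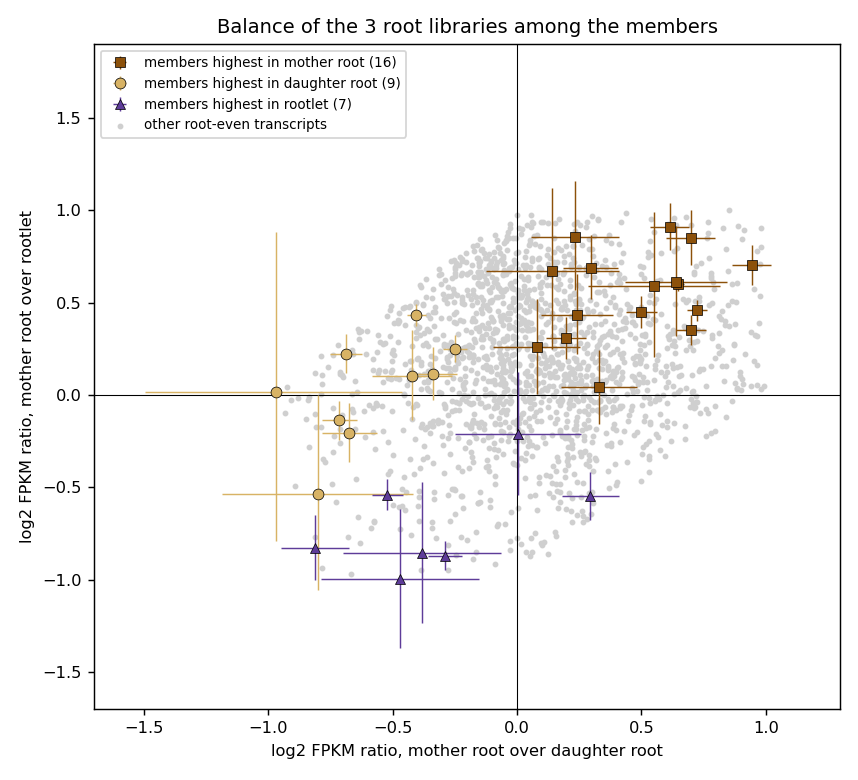
Log2 FPKM ratio of mother root over rootlet (vertical) against that of mother root over daughter root (horizontal) for the 32 members, marked by the root in which each is highest, and for the other root-even transcripts (grey). Bars are 95% conditional binomial limits for counting error. The members spread over the area the rule allows, with mother root highest for 16, daughter root for 9 and rootlet for 7.

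The most even members after TR16913|c0_g1_i1 were TR55768|c0_g1_i1 and TR47990|c1_g2_i1. TR55768|c0_g1_i1 had 121 FPKM in mother root, 114 FPKM in daughter root and 101 FPKM in rootlet, against 4.22 FPKM in leaf, a largest over smallest root of 1.20. TR47990|c1_g2_i1 had 167 FPKM in mother root, 146 FPKM in daughter root and 135 FPKM in rootlet, against 6.38 FPKM in leaf, a ratio of 1.24. For both, the interval of daughter root over rootlet included 1 (0.950 to 1.35 and 0.996 to 1.17), so this pair of roots could not be told apart by counting.

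The members that leaned most to 1 root are set out by that root. Toward mother root, TR43379|c1_g6_i1 was 1.63 and TR50073|c2_g1_i4 1.62 times the next highest root, and TR50073|c2_g1_i4 had 642 FPKM in mother root, 396 FPKM in daughter root and 357 FPKM in rootlet, against 15.1 FPKM in leaf. Toward daughter root, TR45464|c2_g7_i1 was 1.96 and TR45629|c4_g4_i8 1.61 times the next. Toward rootlet, TR48585|c0_g2_i2 was 1.496 times the next, with 455 FPKM in mother root, 557 FPKM in daughter root and 833 FPKM in rootlet, against 10.4 FPKM in leaf. TR39665|c0_g1_i1 was 1.46 times the next, with 97.2 FPKM in mother root, 79.2 FPKM in daughter root and 142 FPKM in rootlet, against 3.44 FPKM in leaf. The excess of TR45464|c2_g7_i1 rests on few fragments, and its ratio of daughter root to rootlet had limits of 1.19 to 3.47.

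The values on each side of the 3 thresholds lay close to them, with no wide gap between members and others. At the level threshold, TR45464|c2_g7_i1 and TR47877|c1_g1_i1 were just inside, with smallest root values of 50.7 and 56.7 FPKM. Just outside were TR15477|c0_g1_i1, at 48.6 FPKM in mother root, 54.4 FPKM in daughter root and 50.8 FPKM in rootlet, against 0 FPKM in leaf, and TR40006|c0_g2_i3, at 43.0 FPKM in mother root, 66.5 FPKM in daughter root and 60.8 FPKM in rootlet, against 0 FPKM in leaf. At the evenness threshold, TR14788|c0_g1_i1 and TR45464|c2_g7_i1 were inside at 1.997 and 1.979, and outside at 2.04 were both TR2629|c0_g1_i1, at 112 FPKM in mother root, 86.2 FPKM in daughter root and 55.0 FPKM in rootlet, against 0 FPKM in leaf, and TR41275|c0_g1_i2, at 520.4 FPKM in mother root, 702 FPKM in daughter root and 344 FPKM in rootlet, against 8.90 FPKM in leaf. At the leaf threshold, TR47990|c1_g2_i1 and TR43684|c1_g2_i1 were inside, each with a smallest root 21.2 times the leaf, and TR43684|c1_g2_i1 had 125 FPKM in mother root, 101 FPKM in daughter root and 77.3 FPKM in rootlet, against 3.64 FPKM in leaf. Outside were TR37267|c1_g1_i1 at a ratio of 19.8, with 198 FPKM in mother root, 164 FPKM in daughter root and 245 FPKM in rootlet, against 8.29 FPKM in leaf, and TR38445|c1_g2_i1 at 18.3, with 59.9 FPKM in mother root, 53.5 FPKM in daughter root and 53.0 FPKM in rootlet, against 2.89 FPKM in leaf. Transcripts that failed only 1 condition numbered 1627 for the level, 109 for the evenness and 1649 for leaf.

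A member is 1 transcript, and other transcripts of the same Trinity gene can follow another pattern. The 32 members came from 29 genes in 28 components, and 19 of the 29 genes have no other transcript. The other 10 genes include TR54850|c2_g1 and TR54927|c1_g1, all of whose transcripts are members, and 8 with 13 further transcripts. Of these 13, 11 met the root level, 3 the evenness and 3 the leaf condition, where 1.99%, 18.6% and 6.92% of all transcripts did. Among the roots, mother root was highest for 7 of the 13 and daughter root for 6. When FPKM was summed over all transcripts of a gene, 22 of the 29 genes kept the rule and 7 did not. Of these 7, 6 lost the evenness and 3 the leaf condition. For the 19 genes with 1 transcript the sum is the member itself, so they kept the rule by construction. Of the 10 with more, only 3 kept it, and these include TR54850|c2_g1 and TR54927|c1_g1, whose transcripts are all members.

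**Figure D5:**
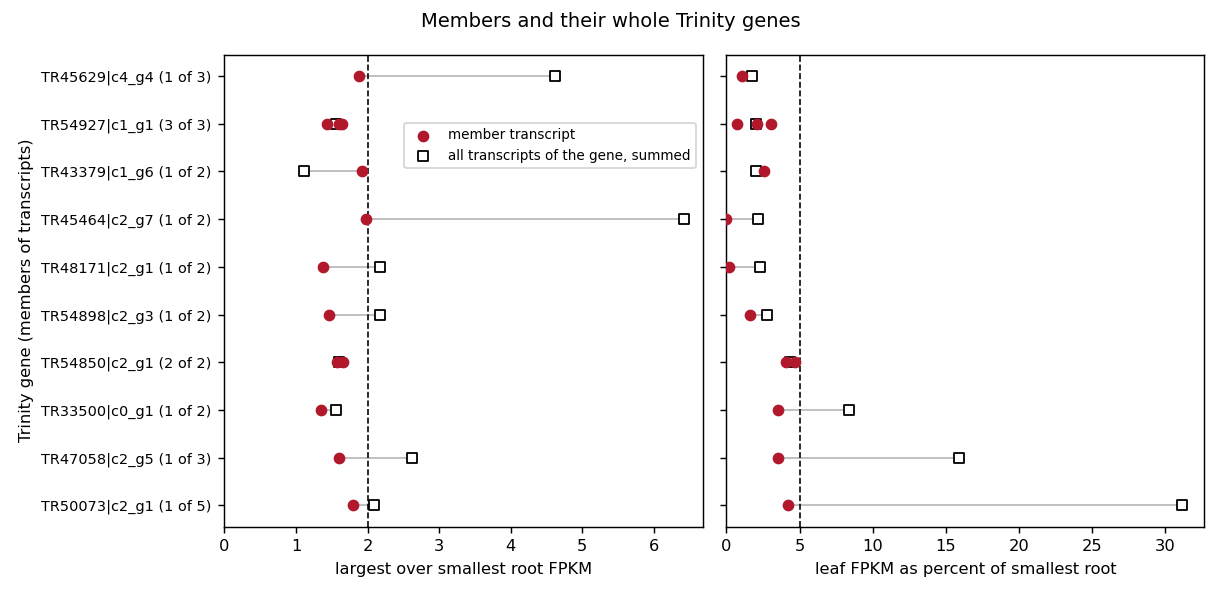
For the 10 Trinity genes of members that have more than 1 transcript, the largest over smallest root FPKM (left) and leaf FPKM as percent of the smallest root FPKM (right), for each member transcript (red circles) and for the sum over the gene (open squares). Dashed lines mark the limits of the rule, 2 and 5%. The sums of TR45464|c2_g7 and TR45629|c4_g4 pass the evenness limit furthest and that of TR50073|c2_g1 the leaf limit.

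TR50073|c2_g1 showed the widest gap in leaf between a member and its gene. Its other 4 transcripts had 140.0, 182, 188 and 217 FPKM in leaf, while the member TR50073|c2_g1_i4 had 15.1 FPKM. Summed, the gene had 4995 FPKM in mother root, 4012 FPKM in daughter root and 2386 FPKM in rootlet, against 742 FPKM in leaf, so it was present in leaf. In TR33500|c0_g1, the member TR33500|c0_g1_i2, of 500 bases, had 193 FPKM in mother root, 163 FPKM in daughter root and 143 FPKM in rootlet, against 5.04 FPKM in leaf, while TR33500|c0_g1_i1, of 499 bases, had 205 FPKM in mother root, 159 FPKM in daughter root and 112 FPKM in rootlet, against 16.4 FPKM in leaf. TR47058|c2_g5, named after its values were seen, was alike: the member TR47058|c2_g5_i1 had 106 FPKM in mother root, 96.0 FPKM in daughter root and 66.4 FPKM in rootlet, against 2.36 FPKM in leaf, and the other transcripts had 9.75 and 11.5 FPKM in leaf. In TR50073|c2_g1 most of the leaf FPKM lay in the other transcripts, and the member held 2.03% of it. The member was itself present in leaf, with 19 fragments and limits of 9.06 to 23.5 FPKM, of which the upper passes 1/20 of its smallest root. In TR33500|c0_g1 and TR47058|c2_g5 the members had 8 and 2 leaf fragments. Their upper limits of 9.93 and 8.53 FPKM also pass 1/20 of their smallest root. Leaf limits of TR33500|c0_g1_i2, 2.18 to 9.93 FPKM, did not overlap those of TR33500|c0_g1_i1, 10.7 to 24.1 FPKM. Those of TR47058|c2_g5_i1, 0.286 to 8.53 FPKM, overlapped those of the gene's other transcripts, 5.78 to 15.4 and 7.64 to 16.6 FPKM. Such limits cover counting error only and not how shared reads were credited.

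Other genes stayed low in leaf but lost the evenness, and in each of these 4 the sum was highest in daughter root. TR45629|c4_g4 reached 5409 FPKM in mother root, 12296 FPKM in daughter root and 2663 FPKM in rootlet, against 46.7 FPKM in leaf, and its member held 25.7%, 18.2% and 44.7% of these root sums. TR45464|c2_g7 reached 463 FPKM in mother root, 1904 FPKM in daughter root and 297 FPKM in rootlet, against 6.45 FPKM in leaf, and its member held 11.0%, 5.26% and 17.1% of the root sums. TR48171|c2_g1 and TR54898|c2_g3 had milder excesses, with sums in daughter root of 1212 and 729 FPKM and a largest over smallest root of 2.17 each. In these 4 genes evenness belonged to the member transcript and not to the sum. In the part used of a table of orthogroups, 5 transcripts of component TR45629 and 5 of TR45464, with no member among them, were placed in the same orthogroup, OG0000015. The reverse was seen for TR43379|c1_g6, where the member was 1.92 and the gene's sum 1.11, with 1647 FPKM in mother root, 1827 FPKM in daughter root and 1691 FPKM in rootlet, against 33.7 FPKM in leaf. The wider components held 63 further transcripts in 47 other genes. Of these 63, 34 met the level, 8 the evenness and 26 the leaf condition, where 1.99%, 18.6% and 6.92% of all transcripts did.

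Properties that the rule did not use were compared as medians and counts, with no test, because transcripts are not replicates. Members had a median length of 571 bases (227 to 2317), against 815 bases for the root-even transcripts, 493 bases for the 141 that were abundant in roots and low in leaf, and 368 bases for all transcripts. Under 500 bases were 14 members (43.8%), against 29.9% of the root-even transcripts, and 6 members were under 300. Above 1000 bases were 11 members (34.4%), against 40.4%. A short transcript yields few fragments in a library of leaf's depth, and the part of length in these leaf values was not tested. Members were the only transcript of their gene for 19 of 32 (59.4%), against 63.7%, and the only one of their component for 12 (37.5%), against 38.0%.

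None of the 67 listed transcripts of diterpene precursor and P450 enzymes was a member, beside 0.0247% of all transcripts, a share too small for a count of 0 here to set the lists apart. Plants make the 5-carbon units of terpenes through the mevalonate (MVA) pathway in the cytosol and the MEP pathway in plastids, and kaurene and atisene synthases and P450 enzymes act on the diterpene path downstream. Of 13 MVA transcripts, 1 met the level, 8 the evenness and 0 the leaf condition. Of 18 MEP transcripts these counts were 4, 6 and 2, of 19 kaurene and atisene transcripts 1, 3 and 3, and of 17 P450 transcripts 1, 3 and 6. Over all 129760 transcripts they were 2587 (1.99%), 24079 (18.6%) and 8984 (6.92%). A transcript with 0 leaf fragments meets the leaf condition at any level above 0 in every root. That was so for 2 of the MEP, 2 of the kaurene and atisene and 4 of the P450 transcripts. Of all transcripts, 32972 had 0 leaf fragments, and 24237 of these were also at 0 in at least 1 root. The P450 list was chosen by the study on levels in these libraries, so its counts are not independent of them.

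Those that met at least 2 of the 3 conditions came nearest. The nearest was TR50314|c2_g1_i5, a transcript of HMG-CoA reductase, the rate-limiting enzyme of the MVA pathway, with 64.5 FPKM in mother root, 53.6 FPKM in daughter root and 65.8 FPKM in rootlet, against 3.79 FPKM in leaf. It was even, with a ratio of 1.23, but its smallest root was 14.2 times the leaf and not 20 times. TR11688|c0_g1_i1, described as a 3-hydroxy-3-methylglutaryl reductase 2 and named after its values were seen, had 80.5 FPKM in mother root, 55.6 FPKM in daughter root and 89.2 FPKM in rootlet, against 4.44 FPKM in leaf, with a ratio of 12.5 that rests on 4 leaf fragments. A P450, TR52743|c4_g3_i1, had 173 FPKM in mother root, 112 FPKM in daughter root and 137 FPKM in rootlet, against 24.4 FPKM in leaf. The MEP transcripts that met both root conditions were higher in leaf than in every root. TR49449|c3_g1_i1 (ISPH), for the last enzyme of the MEP pathway, had 88.9 FPKM in mother root, 103 FPKM in daughter root and 74.2 FPKM in rootlet, against 369 FPKM in leaf. TR52997|c1_g1_i2 (ISPG), for the enzyme before it, had 136 FPKM in mother root, 87.3 FPKM in daughter root and 89.4 FPKM in rootlet, against 241 FPKM in leaf, and TR40389|c0_g1_i1 (ISPF), for an earlier enzyme, had 75.0 FPKM in mother root, 53.0 FPKM in daughter root and 59.9 FPKM in rootlet, against 105 FPKM in leaf. TR42449|c0_g2_i1 (IPPI), for the isomerase that interconverts the 5-carbon units, had 185 FPKM in mother root, 167 FPKM in daughter root and 96.9 FPKM in rootlet, against 224 FPKM in leaf. Even root levels were thus found in both MVA and MEP transcripts, with leaf below the roots for TR50314|c2_g1_i5 and above them for these 4. The other listed HMG-CoA reductase transcripts met fewer conditions. TR50314|c2_g1_i1 was even but missed the level, with 41.2 FPKM in mother root, 56.2 FPKM in daughter root and 41.8 FPKM in rootlet, against 7.17 FPKM in leaf. TR50314|c1_g1_i1 was uneven, with 4.06, 33.3 and 5.33 FPKM in these roots, against 5.71 FPKM in leaf.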

How the data were processed

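RNA-seq of mother root, daughter root, rootlet and leaf, with 1 library each, was used. For the authors' files, reads trimmed by Trimmomatic were pooled over tissues for a Trinity assembly, which CD-HIT-EST made less redundant, and each library was mapped to it by Bowtie 2 and quantified by RSEM. The deposited tables give, per transcript, the length, the expected counts of fragments, FPKM and TPM, and the percent of a gene held by each transcript. In the deposited tables every transcript is its own RSEM gene, so this percent was only 0 or 100 and could not be used as planned. The expected counts deposited by the authors were whole numbers and entered without rounding. FPKM as deposited was the measure of expression, and FPKM rescaled to TPM was an alternative scaling.

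Calculations used scipy 1.17.1, pandas 2.3.3 and numpy 2.4.6 under Python 3.11.15, with figures in matplotlib 3.10.9. With 1 library per tissue no test was made. Intervals are exact Poisson (levels) or conditional binomial (ratios) limits at 95%, and a leaf count of 0 was set against a floor of 3 fragments. Log2 differences used FPKM + 1. The scripts were tested on simulated data. Members, lists and naming rule were chosen with earlier results of these data known. Named are the described member, the 5 highest and 3 lowest members, the 3 most even, up to 3 without leaf fragments, those beside each threshold, genes with several members, up to 3 members whose gene has a transcript of at least 5 FPKM in leaf, the 2 leaning most to each root, and listed transcripts that meet 2 or 3 conditions. Lists were the MVA, MEP, kaurene and atisene, P450, heat shock and photosynthesis transcripts of the study's annotation, of which 2785 described transcripts were held. A planned comparison with single-copy orthogroups was left out because that list was held only in part. Member sequences were not used here.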

Additional observations from a re-analysis of the deposited data

How the results depend on the processing

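Of 40 alternative values, 26 stayed within the range set for them, 13 moved and 1 changed sign. The number of members fell to 13 when the upper counting limit in leaf took the place of leaf FPKM, and to 18 among transcripts of at least 500 bases. Changed thresholds gave 10 with a root ratio of at most 1.5, 65 at 3, 62 with leaf at most 1/10 of the smallest root and 14 at 1/50, where the threshold itself sets the change. Minimum root levels of 30 and 100 FPKM gave 42 and 23. TPM gave 30 members, of which 28 were among the 32, median-of-ratios scaling gave 34, of which 26 were, and summing per Trinity gene gave 28 genes, of which 22 held a member. With median-of-ratios scaling, daughter root was highest for 14 members, 9 were higher in mother root than in daughter root, and the median log2 ratio was -0.10 for mother root over daughter root and 0.08 for mother root over rootlet, since the factors raise daughter root relative to mother root by 0.21 (log2). The pairwise values under this scaling were chosen after seeing the data. TPM shifted leaf against the mean root by -0.19 (log2). Of the 29 member genes, 22 kept the rule when summed. These include all 19 genes with 1 transcript, for which the sum is the member itself. The number that kept it was 19 with TPM and 17 with median-of-ratios scaling. Among transcripts of at least 500 bases the members took 0.769% of mother root, 0.664% of daughter root and 0.625% of rootlet, against 0.0167% of leaf, because fewer transcripts are summed. The median log2 difference between roots and leaf stayed between 5.14 and 5.73. In leaf, 13 members had at most 3 fragments, which limits the precision of their leaf values. No paired analysis was possible because each tissue has 1 library, and no library could be left out for the same reason.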
